A study of Mus musculus with 10 samples.

Results

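The genes described here are 9 outputs and side loops of the circadian clock, taken by name from the 24421 genes of the liver count table. They are the PAR-bZIP activators Dbp, Tef and Hlf, the D-box repressor Nfil3, the E-box repressors Ciart, Bhlhe40 and Bhlhe41, the ubiquitin protease Usp2 and the nuclear receptor Rora. All 9 had enough counts to be among the 11092 genes tested, with 26 to 2873 counts per library.

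Hepatic mRNA from 10 male wild-type C57BL/6 mice (the J substrain per the study's methods), 21 weeks old and fed ad lib, was sequenced. The Chow group (n = 5) ate standard chow, and the TM5614 group (n = 5) ate chow that contained TM5614, a PAI-1 inhibitor given by mouth, at 20 mg/kg/day for 10 days. PAI-1 is the main inhibitor of the plasminogen activators, and the comparison asked how the inhibitor alters liver gene expression. Each mouse gave 1 library, the mice were kept under light/dark cycling, and the time of day at which livers were taken was not given in the sources used here.

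In the clock, the factors encoded by Clock and Arntl bind E-boxes and drive the Per and Cry repressors along with output genes such as Dbp. Dbp, Tef and Hlf proteins bind D-boxes and activate genes of detoxification and lipid metabolism in the liver, and Nfil3 protein represses through the same sites. Ror receptors activate, and Rev-erb receptors repress, genes with ROR elements, among them Arntl and Nfil3.

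Promoter windows are shown first. Those of Ciart and Tef, which fell, and of Bhlhe41, which did not pass, hold the element through which the clock activates its outputs. Those of Dbp and Usp2, which also fell, hold none, and a link between the element and the changes was not tested. In the RefSeq windows of GRCm38.p6, which run from 250 bases before to 50 bases after a start, 8 of the 9 genes had a window and Bhlhe40 had none in the table used. Both strands were searched for the E-box (CACGTG), the E-prime box (CACGTT), the D-box (TTATGTAA or TTACGTAA) and the ROR element core (TAGGTCA or TGGGTCA), none of which overlapped another in the windows of the 9 genes. In the stretches below, 5′ to 3′ on the gene's strand, the capitals mark the E-boxes of Ciart, Tef and Bhlhe41 and the ROR element core of Nfil3, which reads on the opposite strand.
Ciart, chr3:95882252-95882478, minus strand: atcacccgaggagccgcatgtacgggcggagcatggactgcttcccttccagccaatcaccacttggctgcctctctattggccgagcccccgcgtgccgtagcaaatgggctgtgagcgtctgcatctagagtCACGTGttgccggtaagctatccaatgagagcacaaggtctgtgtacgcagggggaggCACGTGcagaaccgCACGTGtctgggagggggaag
Tef, window upstream of the later start, chr15:81811164-81811413, plus strand: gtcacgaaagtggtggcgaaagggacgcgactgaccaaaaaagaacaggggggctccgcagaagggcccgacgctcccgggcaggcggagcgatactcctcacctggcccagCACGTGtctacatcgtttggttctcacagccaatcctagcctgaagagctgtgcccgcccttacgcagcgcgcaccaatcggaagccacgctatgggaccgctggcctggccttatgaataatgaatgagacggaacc
Tef, window of the earlier start, chr15:81802534-81802563, plus strand: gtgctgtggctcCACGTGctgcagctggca
Bhlhe41, chr6:145865559-145865670, minus strand: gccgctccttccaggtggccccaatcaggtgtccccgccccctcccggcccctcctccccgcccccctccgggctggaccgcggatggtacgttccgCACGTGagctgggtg
Nfil3, chr13:52981033-52981062, minus strand: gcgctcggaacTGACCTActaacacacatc

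The Ciart window held 3 E-boxes, at 116, 58 and 44 bases before the start. A window with an E-box made up 7.15% of the 32851 windows searched, and only 29 of them (0.0883%) held 3 or more. The windows of Tef held 1 E-box each, 127 bases before the earlier start, in an annotated exon, and 138 bases before the later one, and that of Bhlhe41 held 1 at 153 bases. The ROR element core of Nfil3 lay 12 bases before its start in an annotated exon, and 6.45% of all windows held that core. The windows of Dbp, Hlf, Usp2 and Rora held none of these letters, and the window of Usp2 belongs to a start inside the gene. No window of the 9 genes held a D-box or an E-prime box, which 1.06% and 4.68% of all windows held. A match describes letters in a window and not a bound site.

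**Figure D1:**
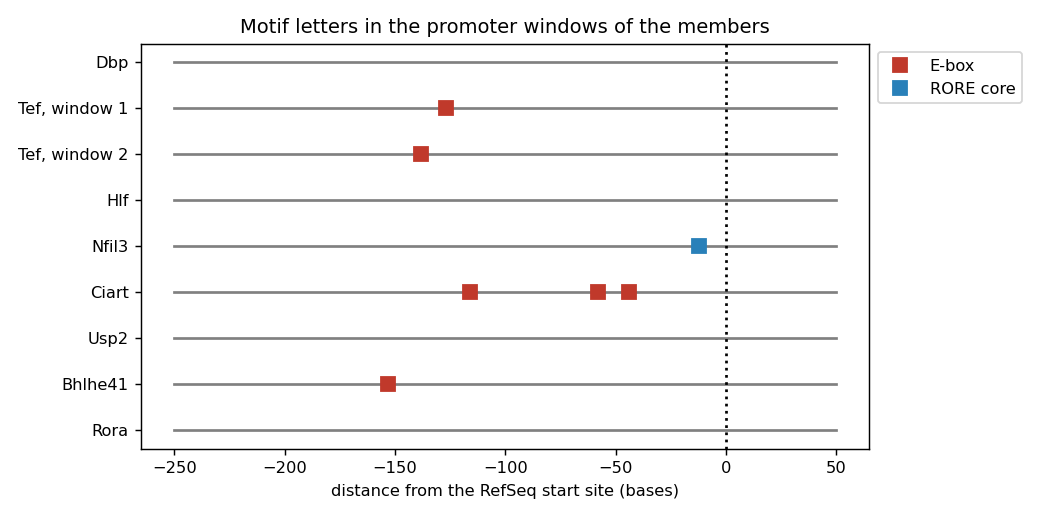
Motif matches in the promoter windows, by distance from the start in bases on the x axis and gene window on the y axis. The 3 E-boxes of Ciart lie at 116, 58 and 44 bases before its start, and no window carries a D-box.

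The libraries held 6398335 to 10874955 counts. Chow replicate 2 and TM5614 replicate 2 stood apart from their groups: without Chow replicate 2 the number of genes that passed rose from 499 to 1031, and 12 skeletal muscle markers summed to 4021 CPM (counts scaled to library size after TMM) in TM5614 replicate 2, against 0.736 to 1.45 CPM in the Chow group. In the other TM5614 libraries the muscle sums were 1.149, 66.3, 5.94 and 3.08 CPM. Hepatocyte markers summed to 110060 to 126220 CPM in Chow libraries and to 99625 to 116910 CPM in TM5614 libraries. None of the marker genes tested for hepatocytes, Kupffer cells, endothelium, stellate cells or cholangiocytes passed edgeR. DESeq2 and limma-voom with sample quality weights each called 1 of 7 hepatocyte markers, and limma-voom called 1 of 8 stellate cell markers. The hepatocyte marker Ttr was lower under TM5614 in groups that did not overlap (log2 change -0.62, edgeR adjusted p = 0.104). In the TM5614 group all 8 stellate cell markers and 0 of 9 Kupffer cell markers had a higher estimate. Of these markers, 3 and 0 had an unadjusted p under 0.05. The sums were 164 to 284 against 265 to 549 CPM for the stellate cell markers and 74.2 to 237 against 76.9 to 162 CPM for the Kupffer cell markers. The stellate sum of 549 CPM was that of TM5614 replicate 2, where Des, which muscle also expresses, held 258 CPM against 2.15 to 7.57 CPM in the other TM5614 libraries, and the next highest stellate sum was 348.9 CPM. The part of these markers in the results below was not tested, and in whole liver fewer cells of a type and less RNA per cell cannot be told apart.

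Dbp, Tef, Ciart and Usp2 were lower in the livers of TM5614-treated mice, and no gene of the 9 passed as higher. Tef fell by 46.3% and Usp2 fell by 80.5%. The time of collection was not given, so whether the groups differed in daily timing rather than in level was not tested. With edgeR's quasi-likelihood test and adjustment over all genes tested, 4 of the 9 genes passed 0.05 and all 4 were lower, where 2.77% of all genes tested passed as lower, 1.73% as higher and 4.50% in either direction. The same 4 genes were those whose CPM did not overlap between the groups, against 8.93% of all genes tested. The estimate was lower in the TM5614 group for 8 of the 9, and the median log2 change of the 9 was -0.82, beside 0.01 for all genes tested. Counted without adjustment, 8 of the 9 and 2263 of all genes tested had a p under 0.05. DESeq2 and limma-voom with sample quality weights each called 7 of the 9, among which Hlf and Bhlhe40 were lower and Nfil3 was higher. These fits also called more of all genes tested, 900 and 1386 against 499 with edgeR.

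**Figure D2:**
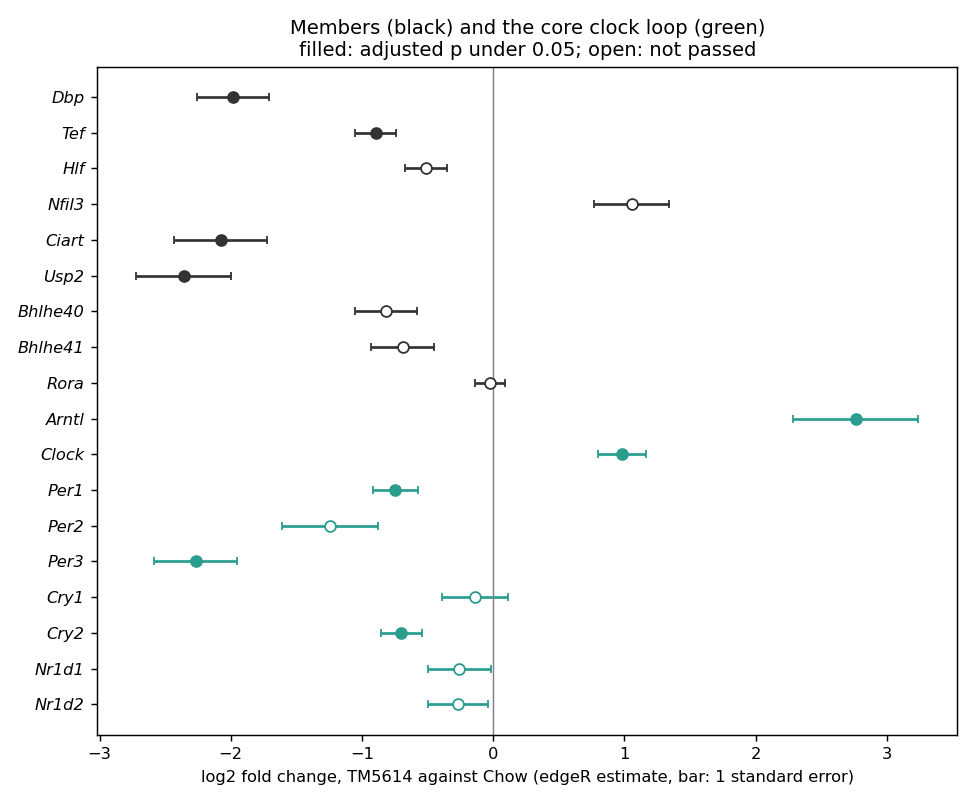
Log2 change of TM5614 over Chow with its standard error on the x axis for each clock output gene (black) and the core loop genes tested (green) on the y axis, from edgeR with 5 libraries per group and filled points for genes that passed. Dbp, Tef, Ciart and Usp2 lie between -0.90 and -2.36, Nfil3 is the 1 clock output gene above 0 and did not pass, and Rora lies at -0.03.

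Dbp (chr7:45705088-45710203, plus strand, GRCm38, protein-coding), the PAR-bZIP factor with the widest daily swing in liver, fell most among the PAR-bZIP factors. In the Chow libraries 1 to 5 its levels were 131, 277, 173, 170.3 and 143 CPM, and in the TM5614 libraries 1 to 5 they were 57.3, 33.1, 25.3, 44.9 and 65.0 CPM. The groups did not overlap, Chow replicate 2 was well above the rest of its group, and TM5614 replicate 3 was the lowest library. The means were 179 ± 57.9 (SD, n = 5) and 45.1 ± 16.4 CPM (SD, n = 5), so that the level fell by 74.8%, with a log2 change of -1.99 (adjusted p = 0.00179 by edgeR, SE 0.27). The log2 change was -1.78 without Chow replicate 2, -1.90 without TM5614 replicate 2 and -1.68 without both, and each passed. An exon of Sphk2, a sphingosine kinase gene on the opposite strand, overlaps exons of Dbp over 539 bases. The use of strand in counting was not stated, so reads from these bases cannot be told apart. Sphk2 had mean levels of 44.7 CPM under Chow and 71.5 CPM under TM5614, a log2 change of 0.68 (adjusted p = 0.0272 by edgeR, SE 0.15), opposite in direction to Dbp.

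Tef (chr15:81802421-81826863, plus strand), the second PAR-bZIP factor, fell less than Dbp. Its levels were 180.2, 197, 262, 220.1 and 231 CPM in the Chow libraries and 129, 96.0, 92.8, 114 and 154 CPM in the TM5614 libraries. Every TM5614 library lay below every Chow library, with TM5614 replicate 5 and Chow replicate 1 nearest to each other. The means were 218 ± 31.7 and 117 ± 25.3 CPM (SD, n = 5 each), so that the level fell by 46.3%, with a log2 change of -0.90 (adjusted p = 0.00733 by edgeR, SE 0.16).

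Hlf (chr11:90336536-90390895, minus strand), the third PAR-bZIP factor, did not pass. It was measured at 125, 88.5, 138, 96.3 and 138 CPM in the Chow libraries and at 76.8, 64.4, 78.0, 93.8 and 97.4 CPM in the TM5614 libraries. The groups overlapped, since Chow replicates 2 and 4 were no higher than the top TM5614 library. The means of 117 ± 23.3 and 82.1 ± 13.5 CPM (SD, n = 5 each) gave a log2 change of -0.51 (adjusted p = 0.1003 by edgeR, SE 0.16). It passed without Chow replicate 2, at -0.61 (edgeR adjusted p = 0.0159).

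**Figure D3:**
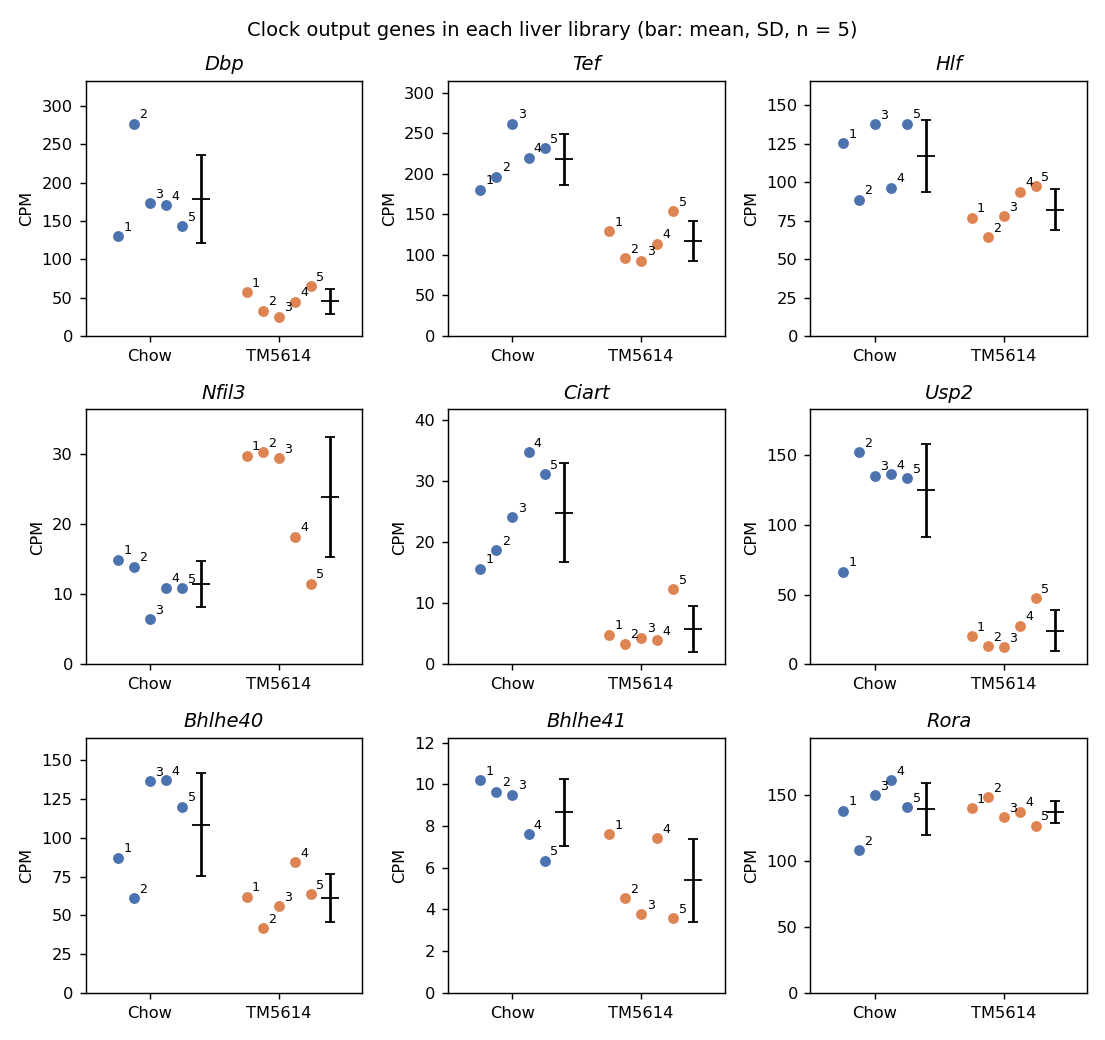
Level of each clock output gene in every library, as CPM on a linear axis from 0 in 1 panel per gene. Points are the 5 Chow and the 5 TM5614 mice, numbered by replicate, and bars give mean and SD. Dbp, Tef, Ciart and Usp2 show groups that do not overlap, and Rora shows groups on the same level.

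Nfil3 (chr13:52967209-52981073, minus strand), the repressor that competes with the PAR-bZIP factors for D-boxes, was the 1 gene of the 9 with a higher estimate. Its levels were 14.9, 13.9, 6.47, 10.9 and 10.9 CPM in the Chow libraries and 29.7, 30.2, 29.4, 18.2 and 11.5 CPM in the TM5614 libraries. TM5614 replicates 1 to 4 lay above all Chow libraries, and TM5614 replicate 5 lay within the Chow range. The means were 11.4 ± 3.29 and 23.8 ± 8.52 CPM (SD, n = 5 each), and with a log2 change of 1.06 (adjusted p = 0.0610 by edgeR, SE 0.29) it did not pass. Without TM5614 replicate 5 it was 1.23 and passed (edgeR adjusted p = 0.0194), and without Chow replicate 2 it was 1.13 and passed (edgeR adjusted p = 0.0324).

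On the FPKM scale, which divides by gene length and so allows levels of different genes to be set side by side, the balance of D-box activators to repressor was described for each library, with no test. The summed FPKM of Dbp, Tef and Hlf was 139, 222, 184, 165 and 159 in the Chow libraries and 75.8, 51.1, 49.0, 68.3 and 89.6 in the TM5614 libraries. These sums did not overlap, with means of 174 ± 31.5 and 66.8 ± 17.1 FPKM (SD, n = 5 each). Divided by the FPKM of Nfil3, the sum was 18.7, 32.2, 57.3, 30.6 and 29.6 in the Chow libraries and 5.14, 3.47, 3.37, 7.55 and 15.7 in the TM5614 libraries. The ratios did not overlap either, and again Chow replicate 1 and TM5614 replicate 5 were nearest to each other. The mean ratio was 33.7 ± 14.2 under Chow and 7.04 ± 5.11 under TM5614 (SD, n = 5 each), given as a description.

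The make-up of the PAR-bZIP sum was described in the same way. Dbp held 59.5% ± 8.29 of the summed FPKM under Chow and 38.8% ± 5.50 under TM5614 (SD, n = 5 each). The lowest Chow share was 52.8% and the highest TM5614 share was 44.5%, so the shares did not overlap. Tef held 28.3% ± 5.07 and 39.2% ± 2.10, and Hlf held 12.2% ± 3.66 and 22.0% ± 4.02 (SD, n = 5 each). Dbp was thus the largest component in every Chow library, while in the TM5614 group Dbp and Tef were within 1 SD of each other, at 26.5 ± 9.76 and 25.9 ± 5.71 FPKM (SD, n = 5 each).

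**Figure D4:**
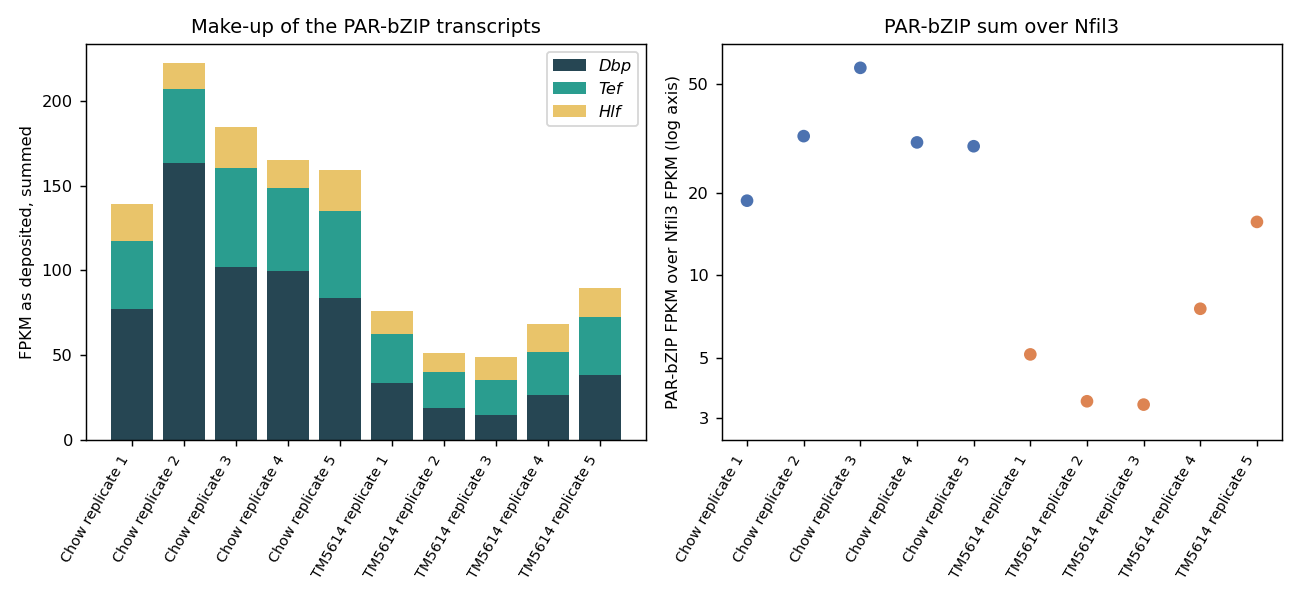
Summed FPKM of Dbp, Tef and Hlf in each library, stacked by gene, and on a log axis the ratio of that sum to the FPKM of Nfil3. The sums run from 139 to 222 for Chow and from 49.0 to 89.6 for TM5614.

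Ciart (chr3:95878503-95882251, minus strand), a repressor of the Clock and Arntl factors that is itself driven through E-boxes, fell with Dbp. In the Chow libraries its levels were 15.6, 18.6, 24.0, 34.7 and 31.1 CPM, and in the TM5614 libraries they were 4.88, 3.37, 4.36, 4.00 and 12.3 CPM. The groups did not overlap, and TM5614 replicate 5 was close to Chow replicate 1. The means were 24.8 ± 8.07 and 5.79 ± 3.69 CPM (SD, n = 5 each), so that the level fell by 76.3%, with a log2 change of -2.08 (adjusted p = 0.00601 by edgeR, SE 0.35). The gene with 3 E-boxes before its start was thus one of the 3 members with a log2 change near or beyond -2, and the others, Dbp and Usp2, had no E-box in their windows.

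Bhlhe40 and Bhlhe41 encode basic helix-loop-helix repressors that bind E-boxes, and neither passed. Bhlhe40 (chr6:108660629-108666925, plus strand) was measured at 87.2, 61.0, 136, 137 and 120.1 CPM in the Chow libraries and at 62.0, 41.5, 55.7, 84.1 and 63.5 CPM in the TM5614 libraries. The groups overlapped through Chow replicate 2, the lowest of its group. Its means of 108 ± 33.3 and 61.4 ± 15.4 CPM (SD, n = 5 each) gave a log2 change of -0.82 (adjusted p = 0.0759 by edgeR, SE 0.23), and without Chow replicate 2 it passed at -0.97 (edgeR adjusted p = 0.00570). Bhlhe41 (chr6:145858243-145865558, minus strand) was the lowest of the 9 in length-scaled level. Its levels were 10.2, 9.65, 9.50, 7.61 and 6.35 CPM in the Chow libraries and 7.61, 4.54, 3.78, 7.43 and 3.59 CPM in the TM5614 libraries. TM5614 replicates 1 and 4 lay within the Chow range, and the log2 change was -0.69 (adjusted p = 0.140 by edgeR, SE 0.24). Exons of Bhlhe41 overlap those of an untested gene on the opposite strand, Gm43909, over 1280 bases, so its reads cannot all be assigned. Shorter overlaps with untested genes on the opposite strand lie in Tef (193 bases), Usp2 (200 bases), Bhlhe40 (118 bases) and Rora (82 bases).

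Usp2 (chr9:44067021-44095627, plus strand), a deubiquitinase whose mRNA cycles in most mouse tissues, had the largest decrease of the 9. Its levels were 66.6, 152, 135, 136 and 133 CPM in the Chow libraries and 20.2, 13.2, 12.2, 27.9 and 47.6 CPM in the TM5614 libraries. Chow replicate 1 was below the rest of its group but above all TM5614 libraries. The means were 125 ± 33.4 and 24.2 ± 14.5 CPM (SD, n = 5 each), so that the level fell by 80.5%, with a log2 change of -2.36 (adjusted p = 0.00315 by edgeR, SE 0.36).

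Rora (chr9:68653786-69388246, plus strand) encodes an activator at ROR elements, and its level did not differ detectably. It was measured at 138, 108, 149.9, 161 and 141 CPM in the Chow libraries and at 140.006, 148, 133, 137 and 127 CPM in the TM5614 libraries. The TM5614 range lay inside the Chow range. The means were 139.6 ± 19.7 and 137 ± 8.14 CPM (SD, n = 5 each), with a log2 change of -0.03 (adjusted p = 0.919 by edgeR, SE 0.12) whose sign changed under some settings. Rorb, a related receptor gene, had 0 to 2 counts per library and was not tested.

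In mean FPKM of the Chow group, the order from high to low was Dbp (105), Tef (48.3), Bhlhe40 (34.4), Usp2 (28.1), Hlf (20.4), Ciart (17.6), Rora (11.2), Nfil3 (5.66) and Bhlhe41 (1.40). Bhlhe40 and Usp2, and Hlf and Ciart, differed by less than the larger of their SDs. In mean FPKM of the TM5614 group, the order was Dbp (26.5), Tef (25.9), Bhlhe40 (19.5), Hlf (14.3), Nfil3 (11.8), Rora (10.96), Usp2 (5.46), Ciart (4.10) and Bhlhe41 (0.868). Usp2 and Ciart thus stood above Rora and Nfil3 in the Chow order and below them in the TM5614 order. In the TM5614 group Hlf and Nfil3, Nfil3 and Rora, and Usp2 and Ciart differed by less than the larger of their SDs, as Dbp and Tef did.

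The same mice stood at the inner edge of their groups for several members. Chow replicate 1 was the Chow library nearest to the TM5614 group for 5 of the 9 genes (Dbp, Tef, Nfil3, Ciart and Usp2). TM5614 replicate 5 was the TM5614 library nearest to the Chow group for these 5 and for Hlf. Arntl, the core activator that peaks at another time of day than Dbp, had 4.00, 0.386, 0.940, 1.43 and 1.66 CPM in the Chow libraries and 10.9, 14.1, 17.4, 8.68 and 5.23 CPM in the TM5614 libraries. It was therefore highest in Chow replicate 1 and lowest in TM5614 replicate 5 of their own groups. Clock was also highest in Chow replicate 1 of its group (51.4 CPM). In the TM5614 group Clock was lowest in replicate 2, at 67.3 CPM against 73.4 CPM in replicate 5. For Bhlhe41, with a lower estimate under TM5614, these libraries stood at the outer edges of their groups instead. It was highest of the Chow group in replicate 1 (10.2 CPM) and lowest of the TM5614 group in replicate 5 (3.59 CPM). Nfil3 had its highest Chow and lowest TM5614 level in the same libraries, but its higher estimate put them at the inner edges. These points share their libraries and are given as a description.

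The members' profiles over the 10 libraries were compared by the mean absolute difference of log2 CPM, each gene centred on its own mean. This measure depends on the size of the changes, so genes that vary little can lie close whatever their patterns. Hlf and Rora, with log2 changes of -0.51 and -0.03, came out closer than Ciart and Usp2, which both fell. Among pairs of members, Tef and Hlf (0.248), Tef and Bhlhe40 (0.253), Hlf and Bhlhe40 (0.263), Hlf and Rora (0.317), Ciart and Usp2 (0.348), Dbp and Usp2 (0.377), and Hlf and Bhlhe41 (0.377) were the 7 closest. Nfil3 and Usp2 (1.82) and Nfil3 and Ciart (1.70) were furthest apart. Of all genes tested, the most alike to Dbp were Mvk (0.247), Fdft1 (0.270), Limd2 (0.284), Gamt (0.308) and Cyp2g1 (0.320). Mvk and Fdft1 encode enzymes of cholesterol synthesis and Gamt an enzyme of creatine synthesis. All 5 had log2 changes of -1.53 to -2.40, which follows from their choice by likeness to Dbp in the same libraries and is no separate result. The most alike to Nfil3 were 2310015A10Rik (0.211), Rnd1 (0.257), Rnf144a (0.260), Ypel2 (0.260) and Avpr1a (0.279), the last of which encodes a vasopressin receptor. Of these only Rnf144a (log2 change 1.18, edgeR adjusted p = 0.0390) and Ypel2 (1.07, edgeR adjusted p = 0.0148) passed.

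**Figure D5:**
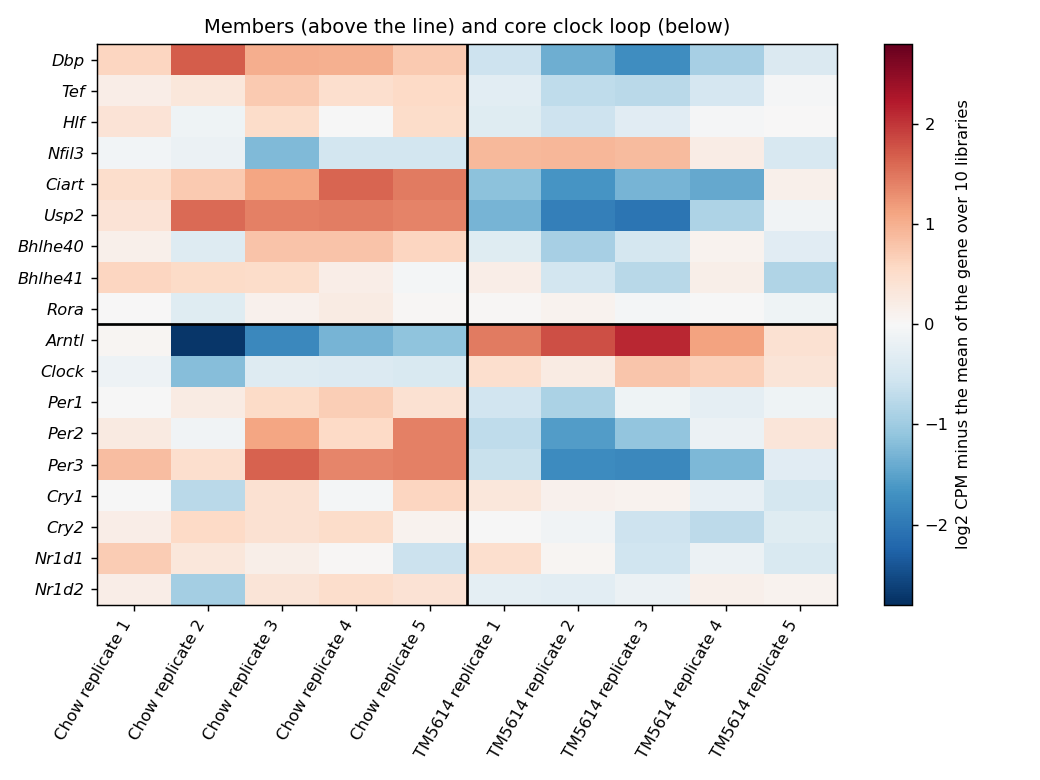
Log2 CPM of the clock output genes and related clock genes in the 10 libraries, each gene centred on its mean, with libraries as columns, genes as rows, and red above and blue below the mean. Dbp and Usp2 are above their mean in all 5 Chow libraries and below it in all 5 TM5614 libraries, and Nfil3 is above its mean in TM5614 replicates 1 to 4.

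The genes around the members were described by lists that share some members, with 4.50% of all genes tested as the background. In the core loop, 9 of 10 genes were tested, 2 rose and 3 fell. Arntl rose from 1.68 ± 1.39 to 11.3 ± 4.73 CPM (SD, n = 5 each), which is a log2 change of 2.76 (adjusted p = 0.00659 by edgeR, SE 0.48), and Clock, its partner, rose by 0.98 (adjusted p = 0.00899 by edgeR, SE 0.18). Of their repressors, Per3 changed by -2.27 (edgeR adjusted p = 0.00195), Per1 by -0.75 (edgeR adjusted p = 0.0304) and Cry2 by -0.70 (edgeR adjusted p = 0.0271). Per2, Cry1, Nr1d1 and Nr1d2 did not pass, and the Rev-erb genes Nr1d1 and Nr1d2 had log2 changes of -0.26 and -0.27. None of 8 clock kinases and ubiquitin ligase genes passed edgeR, with 1 at an unadjusted p under 0.05 and 0 called by DESeq2 or limma-voom.

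Among 12 liver genes known as targets of the PAR-bZIP factors, 11 had lower estimates, 3 fell and 1 rose, with a median log2 change of -0.66. Cyp2a5, a cytochrome P450 of coumarin metabolism, had 1337 ± 338 CPM under Chow and fell to 441 ± 122 CPM (SD, n = 5 each), which is a log2 change of -1.60 (adjusted p = 0.00153 by edgeR, SE 0.21). Por, the reductase that supplies electrons to microsomal cytochromes P450, changed by -0.54 (edgeR adjusted p = 0.0431) and the acyl-CoA thioesterase gene Acot3 by -0.998 (edgeR adjusted p = 0.0349). Acot2, a mitochondrial thioesterase, rose by 1.30 (edgeR adjusted p = 0.00652). The others gave values that did not pass, among them Alas1, the first enzyme of heme synthesis (-0.78, edgeR adjusted p = 0.214), Nr1i3, the receptor CAR (-0.67, edgeR adjusted p = 0.113), and Cyp7a1, the rate-limiting enzyme of bile acid synthesis (-1.21, edgeR adjusted p = 0.119).

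Of 9 tested targets of Ror and Rev-erb receptors, Arntl, Clock and Insig2 rose, and the median log2 change was 0.80. Insig2, which retains the SREBP complex in the endoplasmic reticulum, rose from 151 to 511 CPM, a log2 change of 1.76 (adjusted p = 0.000549 by edgeR, SE 0.20). The list also held Nfil3, with the values above, and Elovl3, a fatty acid elongase gene (0.80, edgeR adjusted p = 0.156). Of 7 other genes of E-box or clock output, Wee1, a mitotic kinase gene (-2.04, edgeR adjusted p = 0.00655), Tspan4 (-1.32, edgeR adjusted p = 0.00655) and Tef fell, and Cdkn1a, the cell cycle inhibitor p21 (2.46, edgeR adjusted p = 0.00238), rose. Of 10 genes that cycle in most tissues, Dbp, Usp2, Per1, Per3 and Tspan4 fell, Arntl rose and 4 did not pass, with a median log2 change of -0.996. Among 5 C/EBP genes, whose proteins are bZIP factors outside the PAR group, only Cebpe passed (-1.55, edgeR adjusted p = 0.0333), and the median was -0.16.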

How the data were processed

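Groups, replicate numbers and mouse numbers were taken from the labels, and columns were matched by mouse number. Per the study's methods, single-end reads of poly(A) libraries were mapped to mm10 by STAR and analysed in RNA Express with DESeq2, and the submitters' processing notes also name HOMER. The versions, gene annotation and use of strand were not given in the sources used here. The files the authors deposited hold whole-number counts for each gene symbol, FPKM values scaled by gene length and library, and regularised log2 values shrunk towards each gene's mean. A deposited table of the authors' own comparison, with mean counts, log2 fold changes, standard errors, statistics and p-values, was not used.

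Counts were filtered with filterByExpr, scaled with TMM and tested with edgeR 4.0.16 in R 4.3.3 (glmQLFit and glmQLFTest, two-sided, no block), with Benjamini-Hochberg adjustment over 11092 genes and a threshold of 0.05. Standard errors came from dividing the log2 fold change by the root of F. CPM used TMM-scaled library sizes, and log2 CPM used a prior count of 2. FPKM values served for levels between genes. No pair of libraries of a group agreed within sampling noise (lowest chi-square per degree of freedom 7.50). The fits were tested on simulated data.

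The members and lists were chosen with earlier results of these data known. By the rule for named genes, all members were named, list genes where they passed or accounted for a list, and the 5 genes most alike to Dbp and to Nfil3. Coordinates came from GENCODE M21 on GRCm38, and promoters from RefSeq. Alternatives were DESeq2 1.42.0, limma-voom (limma 3.58.1) with quality weights, other scalings, filters and thresholds, robust dispersion, a replicate block, libraries left out, log2(FPKM + 0.1), log2(FPKM + 1) and the regularised log2 values. The labels give no batch. Some results that the lists cover are not reported here.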

Additional observations from a re-analysis of the deposited data

Results flagged for a closer look

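Among 22 groups of 5 libraries examined for 1 library far from the others, 3 held such a library, and chance gives about 1 in 20. Dbp reached 277.1 CPM in Chow replicate 2, where the other Chow libraries held 130.5 to 172.9 CPM. Ciart reached 12.32 CPM in TM5614 replicate 5, where the other TM5614 libraries held 3.374 to 4.882 CPM. Usp2 was at 66.59 CPM in Chow replicate 1, where the other Chow libraries held 133.4 to 152.3 CPM. Each of the 3 genes passed edgeR with that library left out.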

How the results depend on the processing

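Dbp, Tef, Ciart and Usp2 kept their direction and passed 0.05 in all 23 alternatives run for each. Their log2 fold changes ran from -2.16 to -1.34 for Dbp, from -1.01 to -0.62 for Tef, from -2.57 to -1.19 for Ciart and from -2.76 to -1.61 for Usp2, with the values nearest 0 from the regularised log2 values. Of the 9 members 4 passed in the edgeR fit, 7 with DESeq2, 7 with limma-voom, 7 without Chow replicate 2 and TM5614 replicate 2 together, and 4 to 7 when libraries were left out singly. Over all genes 499 passed, against 900 with DESeq2, 1386 with limma-voom, 184 at an adjusted p of 0.01, 1230 without Chow replicate 2 and TM5614 replicate 2 together, and 235 to 1031 when libraries were left out singly. Hlf, Nfil3 and Bhlhe40 passed in 4, 5 and 5 of 23 alternatives. Bhlhe41 passed in none (adjusted p 0.0524 to 0.314), nor did Rora. The Rora estimate of -0.03 became 0.0215 with library totals alone, 0.0015 without Chow replicate 3, 0.0248 without Chow replicate 4, 0.0015 without TM5614 replicate 5 and -0.14 without both replicates 2. The cause was not tested.

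The deviations of same-numbered libraries correlated over 0.1 in 3 of 5 pairs (0.0316 to 0.318). Libraries with different numbers gave correlations of -0.35 to 0.306. Of the Chow and TM5614 libraries, 1 of 5 and 2 of 5 correlated best with their own number. With only 5 pairs, these values cannot decide whether the replicate numbers pair the libraries. With the number as a block 555 genes and 5 members passed, Bhlhe40 being the addition (log2 fold change -0.79, edgeR adjusted p = 0.0160). Depth limits Bhlhe41 and Ciart most, with the fewest counts.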
